A study of Homo sapiens with 12 samples.

Results

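The transcriptome of MV-4-11 cells kept with DMSO, the solvent control of the study, is described here from 3 of the 12 libraries of the series. The members are the libraries labelled DMSO, numbered 1 to 3, and every value below is a level in them. The study also sequenced 3 treated groups of 3 libraries each, HPA-12 (which blocks CERT, a protein that carries ceramide between membranes), crenolanib (an inhibitor of the receptor kinase FLT3) and their combination, which were sampled at 48 h and are not used here. Per the labels, the DMSO cells are of the acute myeloid leukaemia line MV-4-11 with bone marrow as tissue and the genotype WT, were grown in serum-containing medium, and gave total RNA. No time is given for DMSO, and nothing says whether the 3 libraries came from separate cultures. The spread between them may therefore be technical only, and with a single group there is no test in what follows.

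MV-4-11 is an established human line of acute myeloid leukaemia, a cancer in which precursors of granulocytes and monocytes multiply without maturing. It carries a fusion of KMT2A, a histone methyltransferase, with AFF1, a member of the complexes that release stalled RNA polymerase, and an internal duplication in FLT3 that keeps this receptor active without its ligand. KMT2A fusions are known to hold on genes of the early blood cell programme, above all HOXA9 and its partner MEIS1. The label WT does not say that FLT3 or KMT2A are intact. The table gives 1 value per gene, so transcripts of all copies of a gene that are present, whether fused, mutated or intact, are summed.

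Levels are in FPKM, fragments scaled to gene length and to library size, so they can be compared between genes as well as between libraries. Means are given with the SD of the 3 libraries. The estimated depth was 13.6 to 15.99 M reads per library, and at the median exonic length of 4222 bases 1 FPKM stood for about 61.0 reads and 3 reads for 0.0494 FPKM. Across genes, which are not independent replicates, each pair of libraries had a Pearson correlation of 0.998 on log2(FPKM + 1) and a Spearman correlation of 0.985. The estimated read counts of the pairs differed by a mean chi-square of 3.11 to 5.62 per gene over 9984 genes, where sampling alone gives a mean of 1. The medians per gene were lower, at 1.10 to 1.49. These values rest on estimated counts, describe the spread only and cannot show how the libraries arose. The 3 were counted as 3 libraries.

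Of the 20036 genes in the table, 9845 (49.1%) averaged 1 FPKM or more, 4085 (20.4%) at least 10 FPKM and 315 (1.57%) at least 100 FPKM, and the median over all genes was 0.909 FPKM. Another 4223 genes (21.1%) were listed at 0 in all 3 libraries. These shares are the background against which each group of genes below is read. The 10 most abundant genes held 20.5 ± 0.300% of the summed FPKM, and the 100 most abundant held 37.9 ± 0.454%.

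**Figure D1:**
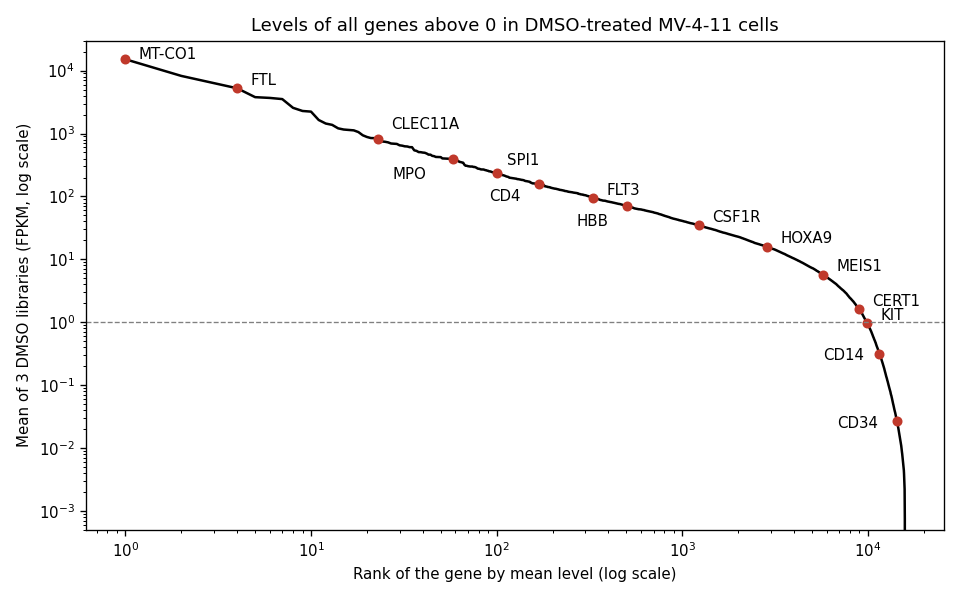
Mean level of each gene above 0 (FPKM, log scale) against its rank among all genes (log scale) in the 3 DMSO libraries, with 15 genes of the text marked in red and a dashed line at 1 FPKM. The curve runs from MT-CO1 at 15153 FPKM through FLT3 at 94.6 FPKM and passes CD34 at 0.0271 FPKM below the dashed line.

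A listed 0 is not always a silent gene. EEF1G, part of the elongation factor that brings amino acids to the ribosome in every cell, was listed at 0 in all 3 libraries, and 99.9% of its exonic bases are shared with another gene in the GENCODE 29 annotation. Of 488 genes that share 90% or more of their exonic bases with a neighbour, 83.0% were listed at 0 and 2.46% reached 1 FPKM. Over the 11095 genes that share none these shares were 24.96% and 45.5%. Over 595 genes sharing 50% to 90% they were 27.1% and 19.0%. Over 2875 genes sharing 10% to 50% they were 11.0% and 59.0%, so that range as a whole did not show the pattern. How the authors annotated genes and assigned reads is not known from the sources used here, so low values of overlapping genes are uncertain. The shared part is given below beside each such low gene where it is at least 10%. Genes with near-identical copies, such as HBA1 and HBA2, are uncertain too, and so is SDHA, a subunit of a respiratory enzyme of every cell that has pseudogenes and stood at 0.674 ± 0.0935 FPKM.

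The 13 mitochondrially encoded genes, which specify subunits of the respiratory chain, held 19.8 ± 0.209% of the summed FPKM. MT-CO1, a subunit of cytochrome c oxidase, was the most abundant gene with 15636, 14991 and 14833 FPKM in libraries 1, 2 and 3. MT-CO3 and MT-CO2, subunits of the same enzyme, came next with 8241 ± 432 and 6323 ± 258 FPKM. The 85 cytosolic ribosomal protein genes held a further 8.28 ± 0.336%, with a median of 183 FPKM. Of these 85 genes, 82 were at 1 FPKM or above and 58 at 100 FPKM or above.

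Outside these classes the most abundant gene was FTL, the light chain of ferritin, which stores iron. It had 5138, 5152 and 5430.1 FPKM, within the range of the mitochondrially encoded genes, and ranked 4 among all genes. EEF2, which moves the ribosome along the messenger, followed with 1641 ± 11.7 FPKM, then ACTB, a cytoskeletal actin, with 1442 ± 66.1 FPKM, the elongation factor EEF1A1 with 1138 ± 27.6 FPKM and the glycolytic enzyme GAPDH with 1123 ± 27.7 FPKM. These are genes that most dividing cells express at a high level. Chaperones stood near the top as well: HSP90AB1 had 724 ± 21.0 FPKM, HSPA8 622 ± 28.7 FPKM and CALR, a calcium-binding chaperone of the endoplasmic reticulum, 607 ± 47.8 FPKM.

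Some of the 25 most abundant nuclear genes belong to blood cells rather than to all cells. SRGN, the proteoglycan core on which granule proteins are packed, had 1009, 905 and 901 FPKM and ranked 19. CLEC11A, a secreted lectin that acts on blood progenitors as stem cell growth factor, had 878, 785 and 808 FPKM and ranked 23, while its genomic neighbours SHANK1 and GPR32 stood at 1.74 and 0.0581 FPKM. SRGN and CLEC11A were highest in library 1. The actin-binding thymosins TMSB4X and TMSB10 had 683 ± 40.6 and 641 ± 49.0 FPKM, and the lysosomal and granule enzymes LYZ and MPO 399 ± 9.41 and 391 ± 1.57 FPKM. HMGA1, a chromatin protein of proliferating and embryonic cells, closed the list with 368 ± 16.1 FPKM.

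PPP1R27, a small regulatory subunit of protein phosphatase, stood among them with 401, 387 and 416 FPKM at rank 52. Its neighbour in the genome, P4HB, a disulphide isomerase of the endoplasmic reticulum, had 186 ± 5.89 FPKM. In GENCODE 29 no exonic base of PPP1R27 is shared with another gene, but how the authors assigned reads between the neighbours is not known, and a part of P4HB reads in this value was not tested.

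The list of primary granule and promyelocyte genes had the highest median of the 11 lineage lists. Neutrophil precursors make primary, or azurophil, granules at the promyelocyte stage to kill microbes. Its members are called granule genes below for short, though the list also holds other genes of that stage. All 15 genes of this list were at 1 FPKM or above, 14 at 10 or above and 10 at 100 or above, with a median of 174 FPKM against 0.909 FPKM over all genes. MPO (ENSG00000005381), the peroxidase that makes hypochlorous acid, had 390.0, 389 and 392.4 FPKM and hardly varied between the libraries. The serine proteases AZU1, ELANE, PRTN3 and CTSG followed with 319.8 ± 9.33, 285 ± 23.5, 255 ± 13.4 and 160.4 ± 7.34 FPKM. CFD, complement factor D, had 243 ± 9.48 FPKM, and the secreted ribonucleases RNASE2 and RNASE3, known from eosinophil granules, had 174 ± 5.55 and 116 ± 7.95 FPKM. BPI, which binds bacterial endotoxin, was the exception with 1.47 ± 0.0317 FPKM.

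AZU1, PRTN3, ELANE and CFD lie in this order in a single run on chromosome 19. The genes next to this run were also above 1 FPKM. On the side of AZU1, PLPPR3, a membrane protein related to lipid phosphatases, had 83.2 FPKM, PTBP1, a splicing regulator, 154 FPKM and PRSS57, another granule serine protease, 78.4 FPKM. On the side of CFD, MED16, a Mediator subunit, had 34.0 FPKM. PALM and MISP, which lie between PRSS57 and PTBP1, were at 0.974 and 0.358 FPKM. RNASE3 and RNASE2 are adjacent on chromosome 14, where RNASE6 had 43.5 FPKM, RNASE1, which lies between RNASE6 and RNASE3, 0.399 FPKM, and EDDM3A and EDDM3B on the far side of RNASE6 were listed at 0.

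Start regions are shown for the 6 granule genes with a single RefSeq window and a level of 116 to 319.8 FPKM, of which 4 hold a C/EBP-type match and CFD and CTSG hold none. C/EBP factors are known regulators of granule genes, and CEBPA was among the most abundant genes of the transcription factor panel described below. Each window runs from 250 bases before to 50 after the RefSeq gene start (GRCh38.p14), 5′ to 3′ on the strand of the gene, with matches to TTGCNNAA on either strand in capitals.
AZU1, chr19:827587-827886, plus strand: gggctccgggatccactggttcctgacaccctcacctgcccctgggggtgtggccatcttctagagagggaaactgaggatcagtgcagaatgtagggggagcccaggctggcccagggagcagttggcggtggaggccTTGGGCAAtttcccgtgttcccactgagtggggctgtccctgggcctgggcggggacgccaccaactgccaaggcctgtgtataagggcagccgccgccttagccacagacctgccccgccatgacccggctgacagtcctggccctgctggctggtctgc
PRTN3, chr19:840749-841048, plus strand: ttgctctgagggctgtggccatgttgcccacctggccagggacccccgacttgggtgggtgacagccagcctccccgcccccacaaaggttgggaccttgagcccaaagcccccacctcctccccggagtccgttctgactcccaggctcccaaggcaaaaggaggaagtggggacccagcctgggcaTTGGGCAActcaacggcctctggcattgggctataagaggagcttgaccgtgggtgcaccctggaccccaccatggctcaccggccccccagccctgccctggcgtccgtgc
CFD, chr19:859414-859713, plus strand: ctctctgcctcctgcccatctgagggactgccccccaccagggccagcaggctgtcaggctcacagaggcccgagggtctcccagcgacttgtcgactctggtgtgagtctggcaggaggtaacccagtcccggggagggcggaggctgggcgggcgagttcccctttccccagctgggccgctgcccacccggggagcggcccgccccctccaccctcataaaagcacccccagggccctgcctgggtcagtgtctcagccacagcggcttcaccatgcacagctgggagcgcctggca
CTSG, chr14:24576201-24576500, minus strand: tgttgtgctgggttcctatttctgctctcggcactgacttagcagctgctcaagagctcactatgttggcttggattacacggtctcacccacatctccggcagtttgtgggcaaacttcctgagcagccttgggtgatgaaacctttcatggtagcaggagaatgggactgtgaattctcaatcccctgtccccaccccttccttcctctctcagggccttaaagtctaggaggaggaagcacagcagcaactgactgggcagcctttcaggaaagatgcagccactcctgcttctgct
RNASE2, chr14:20955237-20955536, plus strand: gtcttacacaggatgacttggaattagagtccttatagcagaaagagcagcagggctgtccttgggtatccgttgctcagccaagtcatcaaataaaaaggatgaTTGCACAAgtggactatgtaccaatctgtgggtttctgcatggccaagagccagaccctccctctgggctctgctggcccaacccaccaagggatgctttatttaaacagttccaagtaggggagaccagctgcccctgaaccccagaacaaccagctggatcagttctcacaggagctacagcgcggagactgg
RNASE3, chr14:20891135-20891434, plus strand: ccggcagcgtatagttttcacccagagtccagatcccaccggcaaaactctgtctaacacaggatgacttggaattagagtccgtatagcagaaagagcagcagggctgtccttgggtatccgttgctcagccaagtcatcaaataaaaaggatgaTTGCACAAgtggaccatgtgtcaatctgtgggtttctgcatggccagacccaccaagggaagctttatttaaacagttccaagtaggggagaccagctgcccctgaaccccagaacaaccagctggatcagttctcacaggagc

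AZU1 and PRTN3 held the same 8 letters, TTGGGCAA, beginning 111 and 62 bases before the start. RNASE2 and RNASE3 held TTGCACAA, beginning 145 and 94 bases before it, within windows that share a run of 86 identical bases. The CFD and CTSG windows held no match, with CFD and CTSG at 243 and 160.4 FPKM. Of the 8 granule genes with a single RefSeq window, 5 held a match, AZU1, PRTN3, RNASE2, RNASE3 and MS4A3, against 8.27% of 11340 windows of the same length. The other 3 were CFD, CTSG and SERPINB1. This motif was chosen for display after the matches had been counted, and a match is a run of letters and not a site of binding.

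Products of later neutrophil stages reached 1 FPKM less often than genes of the primary granule and promyelocyte list. Of 18 late neutrophil genes, 9 (50%) were at 1 FPKM or above, a share like that of all genes (49.1%). The median was 1.63 FPKM. CHI3L1, a secreted chitinase-like protein, led with 251, 247 and 255 FPKM. S100A9, the calcium-binding partner of S100A8 in calprotectin, had 139, 127 and 139 FPKM and S100A8 itself 28.4, 31.1 and 37.7 FPKM. S100A8 was lower than S100A9 in every library, and both stood between epidermal genes of the same region, such as LORICRIN and S100A7A, that were listed at 0. CSF3R, the receptor for granulocyte colony-stimulating factor, had 15.3 ± 0.776 FPKM. The secondary granule proteins LTF and LCN2, lactoferrin and lipocalin, stood at 2.33 ± 0.440 and 0.632 ± 0.194 FPKM and the collagenase MMP8 at 2.34 ± 0.0235 FPKM. LTF, LCN2 and MMP8 were below the 14 genes of the primary granule and promyelocyte list at 10 FPKM or above. LTF and MMP8 were above BPI.

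Of 23 monocyte and macrophage genes, 17 (73.9%) were at 1 FPKM or above, against 49.1% of all genes, with a median of 4.43 FPKM. TYROBP, the adaptor through which many myeloid receptors signal, had 197, 185 and 197 FPKM, and CD4, which human monocytes carry as well as helper T cells, had 158, 156 and 157 FPKM. AIF1, an actin-binding protein of macrophages, had 49.8 ± 5.62 FPKM and CSF1R, the receptor that drives monocyte growth, 34.7 ± 1.54 FPKM. The list was split: the endotoxin co-receptor CD14 had only 0.380, 0.268 and 0.308 FPKM, the scavenger receptor CD163 0.400 ± 0.173 FPKM and the mannose receptor MRC1 was listed at 0. CD68, a lysosomal macrophage protein, stood at 0.0435 ± 0.0214 FPKM, but 85.8% of its exonic bases are shared with another gene.

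Of the 16 stem and progenitor genes, 5 (31.25%) were at 1 FPKM or above, against 49.1% of all genes, and the median was 0.143 FPKM. CD34, the surface protein by which blood stem cells are sorted, had 0.0339, 0.0160 and 0.0315 FPKM, below the 0.0494 FPKM that 3 reads give at the median gene length, or an estimated 3.67 reads per library at its own exonic length. KIT, the stem cell factor receptor, had 1.02, 1.01 and 0.845 FPKM, close to 1 FPKM in every library. PROM1 (CD133) and the stem cell transcription factor MECOM were listed at 0, and CD38, which appears on more advanced progenitors, had 1.57 ± 0.198 FPKM. The transcription factor GATA2 was the highest of the list with 4.93 ± 0.376 FPKM.

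Of 19 erythroid genes 6 (31.6%) reached 1 FPKM, against 49.1% of all genes, and 1 of them stood far above the rest. HBB, the adult beta globin, had 68.0, 67.3 and 74.7 FPKM and made up 80.3% of the summed level of the list. ALAS2, the first enzyme of haem synthesis in red cell precursors, had 4.22 ± 0.414 FPKM and EPOR, the erythropoietin receptor, 3.48 ± 0.116 FPKM. HBD, the minor adult beta-type globin beside HBB, had 2.67 ± 0.471 FPKM, whereas the fetal and embryonic neighbours HBG1, HBG2 and HBE1 stood at 0.0335, 0 and 0 FPKM, with 13.1%, 57.3% and 90.01% of their exonic bases shared with another gene. The alpha globins HBA1 and HBA2 stood at 0.498 ± 0.348 and 0.0837 ± 0.0879 FPKM, far below HBB. In bulk RNA a small number of cells with much of a transcript and many cells with little of it cannot be told apart.

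In the B cell list 3 of 14 genes (21.4%) reached 1 FPKM, against 49.1% of all genes, with a median of 0.0380 FPKM. Among them the surrogate light chain IGLL1 had 1.55 ± 0.503 FPKM and the receptor subunit CD79A 1.18 ± 0.314 FPKM. PAX5, the factor that commits cells to the B lineage, and MS4A1 (CD20) stood at 0.0440 and 0.00952 FPKM. In the T and NK cell list only NKG7, a cytotoxic granule protein, of 19 genes reached 1 FPKM, and it had 62.1, 59.8 and 60.8 FPKM, 93.6% of the summed level of the list. CD3E and CD3D of the T cell receptor complex had 0.376 and 0.155 FPKM, and NCAM1 (CD56), a marker of NK cells and of some leukaemias, had 0.272 FPKM. The defining genes PAX5, MS4A1, CD3E and CD3D were thus below 1 FPKM.

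Of 11 mast cell, eosinophil and basophil genes 4 reached 1 FPKM. The mast cell tryptase TPSB2 had 21.9 ± 2.36 FPKM, its near copy TPSAB1 1.70 ± 0.184 FPKM, the galectin CLC of eosinophil crystals 17.7 ± 3.47 FPKM and the carboxypeptidase CPA3 5.65 ± 0.524 FPKM, while EPX, the eosinophil peroxidase, had 0.850 ± 0.158 FPKM. Reads of the tryptase copies may be split between them, so their order is uncertain. Of 12 megakaryocyte and platelet genes 2 reached 1 FPKM, GP1BA, a subunit of the von Willebrand factor receptor, with 3.01 ± 0.316 FPKM and ITGA2B (CD41) with 1.26 ± 0.154 FPKM. Of 12 dendritic cell genes 6 (50%) did, a share like that of all genes (49.1%), led by the interleukin-3 receptor chain IL3RA with 28.4 ± 2.46 FPKM and the lectin CLEC10A with 10.7 ± 0.431 FPKM, and the subset markers CLEC9A and CLEC4C were listed at 0. None of the 16 genes of tissues other than blood reached 1 FPKM. Their median was 0.01197 FPKM, or 0.00638 FPKM without library 1 and 0.0152 FPKM without library 3. EPCAM was listed at 0 and the highest, RBFOX3, a neuronal splicing factor, had 0.192 ± 0.0124 FPKM.

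**Figure D2:**
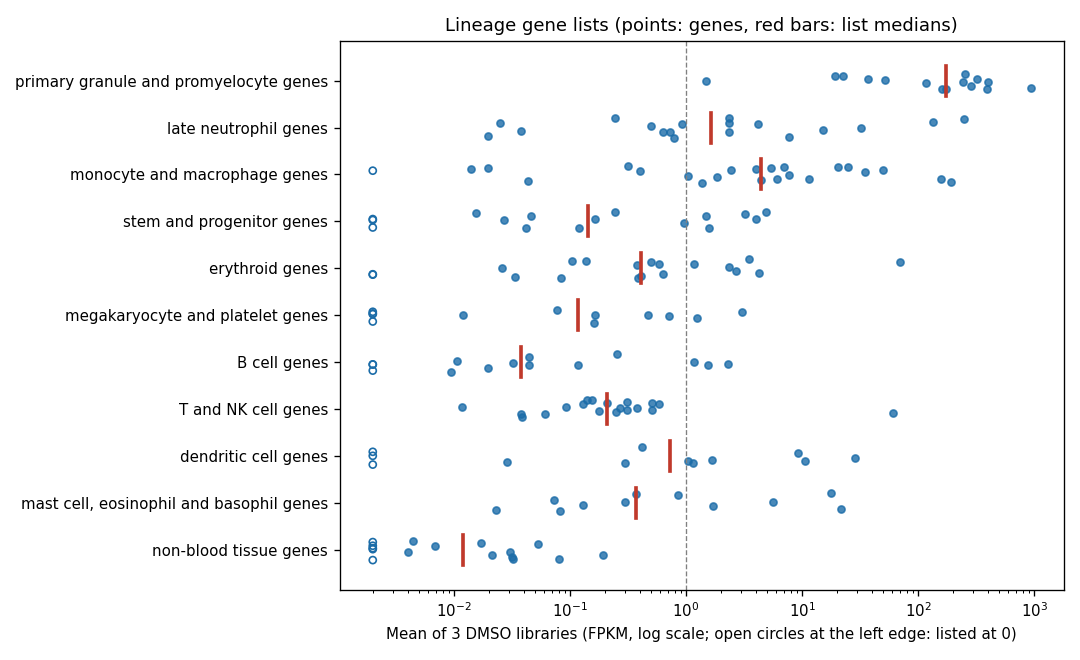
Mean level of each gene (FPKM, log scale) in the 11 lineage lists, with each point a gene, open circles at the left edge for genes listed at 0, red bars for list medians and a dashed line at 1 FPKM. The primary granule and promyelocyte list lies wholly above the dashed line with a median of 174 FPKM, and the non-blood list wholly below it.

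At the surface, receptors for growth factors and cytokines decide which outside signals a blood cell can read. Of 35 cytokine receptor genes 20 (57.1%) were at 1 FPKM or above, against 49.1% of all genes, with a median of 2.32 FPKM. CSF2RB, the chain shared by the receptors for interleukin-3, interleukin-5 and GM-CSF, led with 61.9, 67.9 and 64.9 FPKM. Its partners for interleukin-3 and GM-CSF, IL3RA and CSF2RA, had 28.4 ± 2.46 and 8.32 ± 0.339 FPKM, and its partner for interleukin-5, IL5RA, 0.301 ± 0.0514 FPKM. The interleukin-17 receptor IL17RA had 36.5 ± 1.77 FPKM, the interferon gamma receptor chain IFNGR2 30.3 ± 1.30 FPKM and IL7R 20.8 ± 1.26 FPKM.

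Some receptors lacked a partner at a like level. IL6R, which binds interleukin-6, had 22.2, 24.2 and 22.1 FPKM, whereas IL6ST (gp130), the chain that carries its signal, had 0.327, 0.428 and 0.451 FPKM. IL2RG, the common chain needed by IL7R, stood at 0.135 ± 0.0279 FPKM, but 50.8% of its exonic bases are shared with another gene. IL4R, which can pair with IL2RG or with IL13RA1, had 16.1 ± 0.134 FPKM and IL13RA1 8.43 ± 0.292 FPKM.

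Among receptor tyrosine kinases, FLT3 (ENSG00000122025) stood alone at the top. It had 94.4, 94.4 and 94.8 FPKM, ranked 332 of all genes and made up 50.5% of the summed level of the 58 genes of this class. CSF1R, which belongs to the same subfamily, came next with 36.5, 34.2 and 33.6 FPKM, and the ranges of these receptors did not overlap. The ephrin receptor EPHB3 was the third with 9.11 ± 0.705 FPKM, followed by LTK with 6.36 ± 0.303 FPKM and the ephrin receptors EPHB4 and EPHB6 with 4.87 ± 0.288 and 4.87 ± 0.395 FPKM. In all 15 of the 58 (25.9%) reached 1 FPKM, against 49.1% of all genes, with a median of 0.0665 FPKM. The other 43 did not, and 15 (25.9%) were listed at 0, against 21.1% of all genes. Those listed at 0 included EGFR, MET and ALK. The other members of the FLT3 subfamily, KIT, PDGFRB and PDGFRA, stood at 0.956, 0.0321 and 0.00759 FPKM, the last with 15.8% of its exonic bases shared with another gene.

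**Figure D3:**
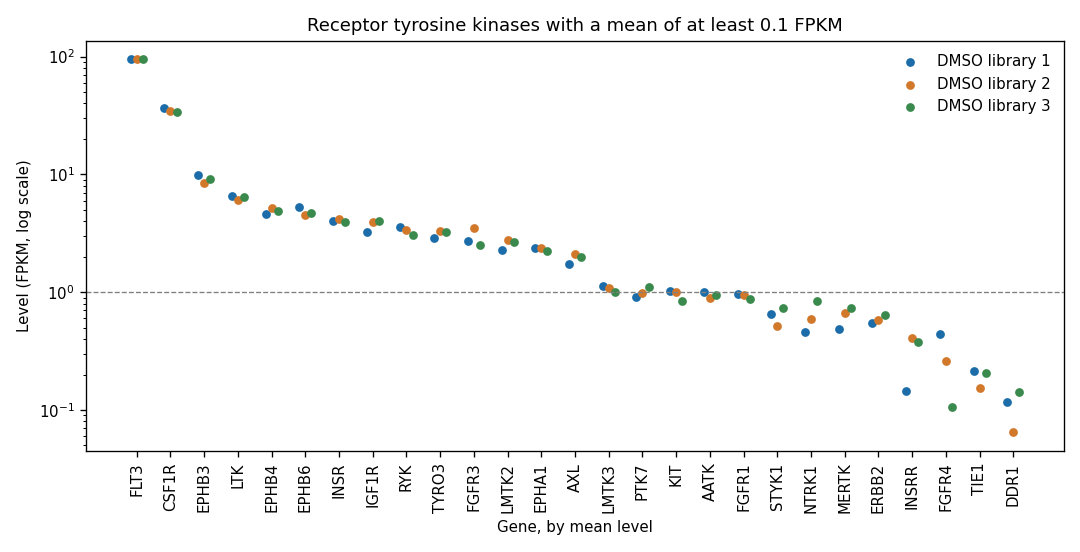
Levels of the receptor tyrosine kinases averaging 0.1 FPKM or more (log scale) in DMSO libraries 1 to 3, each point a library, ordered by mean, with a dashed line at 1 FPKM. FLT3 near 94.6 FPKM and CSF1R near 34.7 FPKM stand above all others, and the libraries lie close together down to about 1 FPKM.

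The ligands of FLT3, CSF1R and KIT were each below 1 FPKM in every library. FLT3LG, the FLT3 ligand, had 0.0440, 0.0259 and 0.102 FPKM (37.5% shared), CSF1, which binds CSF1R, 0.370, 0.352 and 0.388 FPKM and KITLG, which binds KIT, 0.0504, 0.0119 and 0.0584 FPKM. IL3 was listed at 0. Of 48 genes for growth factors and cytokines 16 (33.3%) reached 1 FPKM, against 49.1% of all genes. HDGF, a nuclear growth factor that also acts outside the cell, had 308 ± 8.77 FPKM and TGFB1, which restrains growth of many cells, 142 ± 4.74 FPKM. The inflammatory messengers CCL5, TNF and IL1B had 18.7 ± 3.02, 16.9 ± 0.698 and 11.2 ± 0.563 FPKM, and GAS6, a ligand of the kinases TYRO3, AXL and MERTK, had 12.3 ± 0.623 FPKM. TYRO3 and AXL themselves had 3.13 ± 0.230 and 1.95 ± 0.192 FPKM, and MERTK 0.627 ± 0.129 FPKM, each below GAS6 in every library.

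Of 38 surface antigens used to type or target leukaemia, 27 (71.1%) were at 1 FPKM or above, against 49.1% of all genes. The median was 8.76 FPKM. The tetraspanin CD63, found on granules and lysosomes, led with 133 ± 8.78 FPKM, then SPN (CD43), a mucin of white cells, with 92.5 ± 5.15 FPKM and the inhibitory collagen receptor LAIR1 with 71.8 ± 0.865 FPKM. CD33, the target of an approved antibody conjugate, had 28.8, 27.8 and 27.8 FPKM. CD44, a receptor for hyaluronan, had 23.2 ± 0.0386 FPKM, CD47, which signals macrophages not to engulf the cell, 12.8 ± 0.275 FPKM and the lectin CLEC12A 5.53 ± 0.424 FPKM. PTPRC (CD45), the phosphatase carried by all nucleated blood cells, had 5.05, 5.49 and 5.51 FPKM, lower than CD33 in every library, and the early activation antigen CD69 was listed at 0.

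Among 14 Siglecs, lectins that bind sialic acid, 8 (57.1%) reached 1 FPKM, against 49.1% of all genes. SIGLEC12 had 41.9 ± 1.87 FPKM, above CD33 in all 3 libraries, and SIGLEC5 and SIGLEC6 had 12.7 ± 0.548 and 10.2 ± 0.220 FPKM, with 96.2% and 16.5% of their exonic bases shared with another gene. Integrins, which anchor cells, reached 1 FPKM in 12 of 26 genes (46.2%), a share like that of all genes. ITGB2 had 51.8, 51.3 and 52.3 FPKM and its partner ITGAL 50.5, 51.8 and 52.2 FPKM, so the chains of LFA-1, which binds ICAM1, stood at nearly the same level. The other partners of ITGB2, ITGAX and ITGAM, had 4.43 ± 0.219 and 2.42 ± 0.186 FPKM. ITGA5, a chain of the fibronectin receptor, had 50.6 ± 1.36 FPKM and its partner ITGB1 6.17 ± 0.260 FPKM, while ITGA4, another partner of ITGB1, had 2.01 ± 0.166 FPKM.

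Of 23 chemokine receptors 8 (34.8%) reached 1 FPKM, against 49.1% of all genes. CXCR4, which holds blood cells in the marrow, led with 53.6, 49.8 and 49.0 FPKM, and its ligand CXCL12 was listed at 0. CCR2 and CCR1, receptors of inflammatory monocytes, had 20.3 ± 0.782 and 14.9 ± 0.922 FPKM. Of 25 sensors of microbes 8 (32%) did. Among them the DNA sensor CGAS had 24.9 ± 0.442 FPKM, its adaptor STING1 18.1 ± 1.33 FPKM and TLR2 16.3 ± 0.0678 FPKM. The endotoxin receptor TLR4 had 1.06 ± 0.162 FPKM, close to 1 FPKM like several of its relatives. Among 19 receptors for antibodies and complement 8 (42.1%) did, led by the signalling chain FCER1G with 24.1, 24.0 and 26.9 FPKM and FCGR2A with 7.90 ± 0.242 FPKM.

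Of 7 MHC class I genes 5 reached 1 FPKM, and of 14 MHC class II genes 7 (50%) did, with a median of 2.16 FPKM, against 49.1% of all genes. B2M, the invariant chain of MHC class I, had 299 ± 7.20 FPKM, HLA-E 115 ± 3.43 FPKM and HLA-C 112 ± 2.36 FPKM, above HLA-B with 45.5 ± 0.761 FPKM. In MHC class II, CD74, the chaperone of these molecules, had 268 ± 6.73 FPKM and HLA-DRA 141 ± 12.1 FPKM, but the partner chain HLA-DRB1 had 6.16 ± 0.369 FPKM. HLA-B shares 18.9% of its exonic bases with another gene, and since HLA genes are close copies of each other their order is uncertain. Other receptors at a high level were the tumour necrosis factor receptors TNFRSF1B and TNFRSF1A with 89.4 ± 2.80 and 71.1 ± 2.44 FPKM, the adhesion receptor ADGRA2 with 89.98 ± 2.77 FPKM, the myeloid inhibitory receptor CD300LF with 43.3 ± 2.40 FPKM and LILRB4 with 19.2 ± 0.664 FPKM.

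Transcription factors set which of these programmes run. A panel of 891 genes was gathered from family names and lists of transcription factors, so factors outside it are not ranked here. Of the panel, 434 (48.7%) were at 1 FPKM or above, a share like that of all genes (49.1%). Another 113 were listed at 0, and 123 were at 10 FPKM or above. Only 5 of the panel were at 100 FPKM or above. SPI1 (PU.1, ENSG00000066336), the master factor of myeloid cells, was the highest of the panel with 236, 230.2 and 238 FPKM and ranked 101 of all genes. JUND, a growth-related factor of most cells, had 177 ± 9.95 FPKM and MYC, which drives cell growth, 158 ± 2.43 FPKM. IRF8, which directs cells towards monocytes and dendritic cells, had 128, 128 and 126 FPKM and CEBPA, which directs them towards granulocytes, 108, 114 and 118 FPKM. The ranges of these 5 genes did not overlap with each other in the 3 libraries.

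Of 49 factors known for roles in blood formation, 32 (65.3%) reached 1 FPKM, against 49.1% of all genes, with a median of 5.45 FPKM. RUNX3, GFI1, MYB and LMO2 lay close together with 62.4 ± 0.927, 58.9 ± 1.40, 56.9 ± 2.10 and 54.7 ± 1.39 FPKM. GFI1 represses monocyte genes in granulocyte precursors, and MYB and LMO2 sustain immature cells. RUNX1 had 21.6 ± 0.950 FPKM and IKZF1 37.5 ± 1.68 FPKM. Some factors of other lineages were low. GATA1 of red cells and platelets had 0.483, 0.427 and 0.513 FPKM, KLF1 of red cells 1.16 ± 0.162 FPKM, PAX5 of B cells 0.0440 ± 0.0104 FPKM and GATA3 of T cells 0.0347 ± 0.0254 FPKM. NFE2, a factor of red cell precursors and megakaryocytes, was not low, with 33.8, 34.5 and 34.4 FPKM.

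The HOX genes, which mark position in the embryo and immaturity in blood, reached 1 FPKM in the A and B clusters only. Of 11 HOXA genes 9 (81.8%) were at 1 FPKM or above, against 49.1% of all genes. HOXA10 (ENSG00000253293) was the highest with 20.1, 20.2 and 19.0 FPKM. HOXA9 (ENSG00000078399) followed with 16.2, 16.03 and 15.2 FPKM. HOXA11 had 8.92 ± 0.842 FPKM and HOXA5 7.09 ± 0.306 FPKM. At the end of the cluster HOXA13 had 0.149 ± 0.0577 FPKM, and the next gene beyond HOXA13, EVX1, was listed at 0. Of 10 HOXB genes 5 (50%) reached 1 FPKM, a share like that of all genes. They were led by HOXB4 with 16.8, 18.4 and 16.4 FPKM and HOXB3 with 8.96 ± 0.763 FPKM. None of 9 HOXC genes reached 1 FPKM, the highest being HOXC6 with 0.896 ± 0.262 FPKM (15.7% shared). All 9 HOXD genes were listed at 0, of which 5 share at least 10% of their exonic bases with another gene.

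All 15 genes of a list known to be held on by KMT2A fusions were at 1 FPKM or above, against 49.1% of all genes, with a median of 10.3 FPKM. FLT3, MYB and LMO2, described above, were the highest, and PBX3, a cofactor of HOX proteins, had 22.9 ± 0.452 FPKM. MEIS1, the other cofactor, had 5.72, 6.15 and 5.27 FPKM, about the level of MEF2C with 6.57 ± 0.262 FPKM and below HOXA9 in every library. CDK6 and BCL2, a kinase of the cell cycle and an inhibitor of apoptosis, had 12.4 ± 0.837 and 10.3 ± 0.734 FPKM. The list was put together from genes known for this class of leukaemia, so its levels describe the line.

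Genes of the KMT2A complex and its partners were at 1 FPKM or above in 17 of 18 cases (94.4%), against 49.1% of all genes. The median was 14.9 FPKM. MLLT1 (ENL), a reader of histone acylation, led with 82.5 ± 1.69 FPKM, whereas its paralogue MLLT3 (AF9) was the single gene below 1 FPKM with 0.0619, 0.0274 and 0.108 FPKM. The fusion's own genes had 5.43 ± 0.884 FPKM for KMT2A and 16.8 ± 2.60 FPKM for AFF1. MEN1 (menin), which tethers KMT2A to chromatin, had 28.99 ± 1.04 FPKM, the histone methyltransferase DOT1L 20.7 ± 0.161 FPKM and the core subunit WDR5 41.9 ± 0.934 FPKM. Levels of KMT2A and AFF1 hold any fused and any intact transcripts together.

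Of 30 genes that are often mutated or altered in level in leukaemia, 24 (80%) reached 1 FPKM, against 49.1% of all genes. IDH2, a mitochondrial dehydrogenase, had 115 ± 1.16 FPKM, NPM1, a nucleolar chaperone, 74.5 ± 3.05 FPKM and the apoptosis inhibitor MCL1 48.0 ± 0.250 FPKM. The RNA-binding protein IGF2BP2 had 26.6 ± 1.77 FPKM. WT1, whose transcript is followed in patients as a marker of leukaemia, had 2.50, 2.10 and 1.96 FPKM, low but present in every library. LIN28B was listed at 0, and IGF2BP3, a relative of IGF2BP2, stood at 0.00283 FPKM (17.9% shared).

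The title of the series names CERT, FLT3, GRP78, ATF6 and CHOP. Their genes spanned a wide range in DMSO: FLT3 was described above, HSPA5 (GRP78), the main chaperone of the endoplasmic reticulum, had 87.1, 82.0 and 77.8 FPKM, and the stress sensor ATF6 had 4.29, 4.53 and 4.19 FPKM. DDIT3 (CHOP), a factor of terminal stress, had 1.77, 1.97 and 3.00 FPKM, its libraries differing more than those of the others, with 39.6% of its exonic bases shared with another gene. CERT1 (ENSG00000113163), the target of HPA-12, had 1.58, 1.66 and 1.57 FPKM and ranked 8967. Of the other stress genes, ATF4 had 87.4 ± 1.61 FPKM, near HSPA5, and XBP1 60.3 ± 2.66 FPKM, below it in every library, while the sensors ERN1 (IRE1) and EIF2AK3 (PERK) had 2.72 ± 0.0779 and 0.560 ± 0.0206 FPKM, the latter with 15.1% shared.

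CERT moves ceramide from the endoplasmic reticulum to the Golgi, where sphingomyelin is made. Of 38 sphingolipid genes 26 (68.4%) reached 1 FPKM, against 49.1% of all genes, with a median of 3.28 FPKM. UGCG, which adds glucose to ceramide, led with 64.2, 63.1 and 59.9 FPKM, whereas SGMS1, the Golgi enzyme that makes sphingomyelin from the ceramide that CERT delivers, had 0.789, 0.803 and 0.993 FPKM. The enzymes that use ceramide thus differed widely in level, and CERT1 was closer to SGMS1 than to UGCG. Ceramide is made by SPTLC1 and SPTLC2, the serine palmitoyltransferase subunits, with 5.94 ± 0.488 and 17.0 ± 1.73 FPKM, by the desaturase DEGS1 with 41.0 ± 0.551 FPKM and by CERS2, the main ceramide synthase here, with 24.0 ± 0.830 FPKM. CERK, which phosphorylates ceramide, had 26.2 ± 1.05 FPKM.

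Where several genes encode close relatives of the same protein, their shares show which relative the cells use at the RNA level. In 33 of 38 such sets a single gene held more than 50% of the set's summed FPKM, and in 8 more than 90%. In 37 sets the leading gene was above the next in every library; the exception was the PIM kinases, with PIM1 at 41.8, 40.7 and 41.7 FPKM and PIM3 at 41.1, 36.0 and 43.4 FPKM, where PIM3 led on average without library 2. In the sets of signalling proteins, RAC2 held 80.9 ± 0.393% of the RAC GTPases, VAV1 78.0 ± 1.66% of their exchange factors and PIK3CD 65.4 ± 0.606% of the PI3K catalytic subunits. The subunit PIK3CA stood at 0.579 FPKM with 35.8% of its exonic bases shared with another gene, so the PIK3CD share is less certain. SYK held 99.7 ± 0.0885% against the T cell kinase ZAP70. PLCG1, the phospholipase found in most tissues, held 67.7 ± 0.724% and PLCG2, the form of blood cells, 32.3 ± 0.724%. JAK3, the JAK of lymphoid cells, held 2.57 ± 0.277% of its set.

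Downstream of FLT3, STAT5A and STAT5B, the STATs known to be activated by its mutated form, had 17.9 ± 0.794 and 11.2 ± 0.441 FPKM, well below STAT6, a STAT known for interleukin-4 signals, with 90.5, 93.2 and 90.6 FPKM. TYK2 led the JAK kinases with 44.5 ± 1.19 FPKM, and JAK2 had 2.45 ± 0.0564 FPKM. The GTPases NRAS and HRAS had 13.6 ± 0.445 and 10.7 ± 0.935 FPKM. The kinases AKT1 and LYN had 31.9 ± 1.64 and 30.3 ± 1.57 FPKM.

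In the cell cycle and survival sets, CCND3 held 84.1 ± 0.565% of the D-type cyclins and CCND1 stood at 0.0327 FPKM, with 10.3% of its exonic bases shared with another gene. MCL1 held 64.8 ± 1.66% of the BCL2-type survival genes, BCL2 13.9 ± 0.571% and BCL2A1 1.81 ± 0.676%. RUNX3, more often linked to lymphoid cells and tissues, held 67.7 ± 1.16% of the RUNX genes, ahead of RUNX1 with 23.4 ± 0.695%. TET3 held 87.2 ± 0.167% of the TET dioxygenases, which oxidise methylated cytosine, and DNMT1 82.9 ± 0.436% of the methyltransferases that write it. EZH1 held 61.2 ± 1.86% and EZH2 38.8 ± 1.86% of their pair, although EZH2 is the member usually linked to dividing cells.

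In metabolism, LDHA held 99.8 ± 0.116% of the lactate dehydrogenases, with LDHB at 0.175 ± 0.127 FPKM and 33.4% of its exonic bases shared with another gene. PKM had 268 ± 9.47 FPKM and PKLR, the red cell and liver form, 0.0450 FPKM (17.6% shared). HK2 led the hexokinases with 32.1 ± 1.68 FPKM over HK1 with 16.6 ± 0.780 FPKM. SLC2A1 held 48.1 ± 1.08% of the glucose transporter set, followed by the fructose transporter SLC2A5 with 23.2 ± 0.628%. The leading aldolase in the table was ALDOC, but ALDOA, which stood at 0.754 ± 0.116 FPKM, shares 53.5% of its exonic bases with another gene, so this order is uncertain. Among HSP90 genes, HSP90B1, the form of the endoplasmic reticulum, had 14.2 ± 0.534 FPKM, a small part of its cytosolic relative HSP90AB1.

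**Figure D4:**
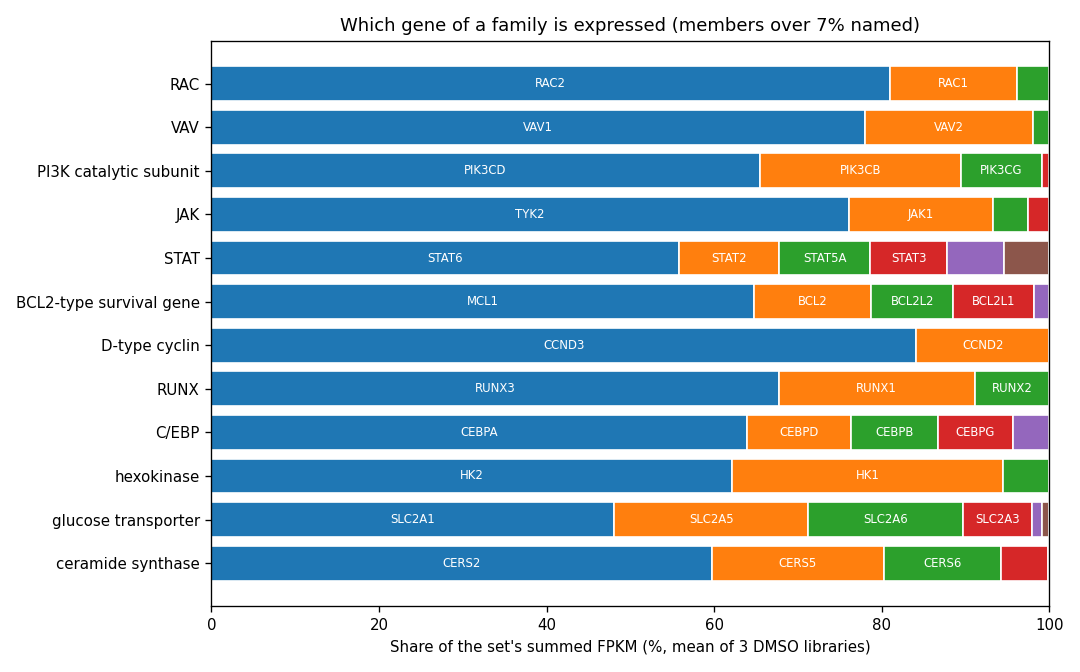
Share of the summed FPKM held by each gene in 12 of the 38 sets of related genes (%, mean of 3 DMSO libraries), each bar a set, with genes above 7% named. RAC2, VAV1, TYK2 and CCND3 each hold more than 70% of their set, and SLC2A1 leads its set with just under 50%.

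Several families had no gene, or almost none, above 1 FPKM. None of 415 olfactory receptor genes reached 1 FPKM, and 367 were listed at 0 in all 3 libraries, which is 88.4% against 21.1% of all genes. Of 94 keratin-associated protein genes of hair, 89 were listed at 0, and of 38 beta defensins 37 were. All 22 PRAME family genes were at 0, as were 31 of 34 genes of the cornified envelope of skin and 15 of 17 type I interferon genes. None of 21 UDP-glucuronosyltransferases, which detoxify in the liver, and none of 10 sodium channel subunits reached 1 FPKM. Of the UDP-glucuronosyltransferases, 10 share at least 10% of their exonic bases with another gene.

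Single genes stood out within families that were otherwise near 0. Among 34 MAGE genes, many of which are normally expressed only in testis, 26 were at 0, but MAGEA4 had 29.6, 27.9 and 29.02 FPKM. MAGEF1 and MAGED2, which most tissues express, had 20.6 ± 1.20 and 20.3 ± 2.43 FPKM. Of 44 collagen genes 36 were below 1 FPKM, whereas the transmembrane collagen COL23A1 had 24.8, 26.2 and 23.3 FPKM and COL9A2, a collagen of cartilage, 19.5, 20.3 and 19.1 FPKM. GRIN2D, a glutamate receptor subunit of neurons, had 26.9, 26.1 and 26.5 FPKM in a family in which 34 of 38 genes were below 1 FPKM; GRINA, which shares part of the name without being a glutamate receptor, had 68.3 ± 4.27 FPKM.

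Of 55 keratins 3 reached 1 FPKM, with KRT10 at 10.5 ± 0.140 FPKM, and 39 were at 0. CLDN15 of the tight junctions had 12.4 ± 0.554 FPKM and the signalling protein WNT6 10.2 ± 0.806 FPKM. Developmental factors showed this pattern only in part. Of 14 NKX genes 2 reached 1 FPKM: NKX2-3, a factor of spleen and gut, with 9.80, 11.3 and 10.5 FPKM and NKX3-2 with 4.04 ± 0.219 FPKM. Of 17 T-box genes 5 did, with TBX1 highest at 8.52, 10.2 and 10.4 FPKM and 45.7% of the family's summed level. Of 19 SOX genes 4 did, 2 of them at 10 FPKM or above. The highest was SOX4, known from leukaemia and progenitors, with 54.4 ± 3.11 FPKM. None of 9 PAX genes reached 1 FPKM.

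Promoter sequence differed with the level of the gene. Of the genes in the table, 11340 had a single RefSeq start window of 300 bases. The median count of CpG dinucleotides per window was 5 for genes listed at 0, 18 for genes under 1 FPKM, 26 for 1 to 10 FPKM, 28.5 for 10 to 100 FPKM and 27 for genes at 100 FPKM or above. A TATAAA box on either strand was found in 23.0%, 10.7%, 5.32%, 4.54% and 12.5% of these windows, so it was least frequent at middle levels and more frequent at both ends. The ETS-type motif CCGGAAG was found in 3.56% of windows of genes at 0 and in 25.6% at 10 to 100 FPKM. Granule genes, among the most abundant of the table, had a median of only 7.5 CpG in 8 windows, and monocyte genes 2 in 13 windows, whereas the KMT2A-fusion programme had 31 in 8.

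The 8 motifs were searched on both strands and none contains another, though matches may overlap. Over all windows TATAAA was found in 10.5%, CCAAT in 37.5%, GGGCGG in 59.7%, CCGGAAG in 15.3%, the PU.1-type GAGGAA in 27.5%, the C/EBP-type TTGCNNAA in 8.27%, the MYB-type AACNGNC in 32.5% and the E-box CACGTG in 8.88%. The PU.1-type letters were found in 9 of 13 monocyte gene windows and in 3 of 8 granule gene windows. They were also in 6 of 7 windows of mast cell, eosinophil and basophil genes and in 9 of 15 of microbe sensors. A high share was thus not particular to monocyte genes. GAGGAA was nearly as frequent in windows of genes at 0 (28.5%) as in those at 100 FPKM or above (26.0%).

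Levels were closely repeated between the libraries. Over 6123 genes averaging 5 FPKM or more, the coefficient of variation had a median of 4.603%, and 15 genes exceeded 20%. From 0.1 to 1 FPKM the median was 23.5%, so differences between low genes of less than about that size cannot be ordered. The most variable gene at 5 FPKM or above was NUDT8, a hydrolase of the Nudix family, with 4.64, 4.33 and 7.19 FPKM. It was followed by TIMM9, a mitochondrial import chaperone, with 4.86, 4.01 and 6.81 FPKM, SMIM7 with 3.92, 5.57 and 6.73 FPKM (exonic bases of 30.5% and 13.1% shared) and NCR3LG1, a ligand of an NK cell receptor, with 9.53, 16.03 and 12.8 FPKM. In the first 3 of these library 3 was the highest, and in NCR3LG1 library 2 was. IFI6, an interferon-induced gene, had 11.8, 10.4 and 15.8 FPKM and DEFB1, the single beta defensin above 0, 5.67, 6.88 and 4.25 FPKM.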

How the data were processed

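RNA of MV-4-11 cells was sequenced by the authors in 4 groups of 3 libraries, of which the 3 labelled DMSO are used here. The deposited table gives FPKM per gene and library, computed by the authors (per the file headers). Aligner, read counter, build and annotation could not be taken from the labels or headers (not given in the sources used here). All 12 value columns were matched to libraries by name, with 0 left over.

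Symbols were found for 20011 of 20036 Ensembl identifiers. Exonic lengths and bases shared between genes came from GENCODE 29 (19852 identifiers), and promoter windows from RefSeq (GRCh38.p14), leaving out genes with several windows. Depth is an estimate: in genes that share no exonic bases, the most frequent low value, scaled by exonic length, was taken as 1 read. At this depth 38.7% of values under 20 reads were whole within 0.01 read. A count test was not run, since there is a single group. Means, SD, ranks and shares were computed with Python 3.11.15, pandas 2.3.3 and numpy 2.4.6, and the scripts were tested on simulated data.

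The libraries, the 27 gene lists with 602 genes, the 60 families and the 38 sets of related genes were chosen with earlier results of these data known. Named genes are the 25 highest nuclear genes outside ribosomal proteins; key and the 6 highest members of each list; the highest members of each family (up to 5 at 1 FPKM or above, or at 10 FPKM or above in silent families); genes of the sets; and the 10 most variable at 5 FPKM or above. Some genes that the rule names are not reported here. Outside this rule, and chosen after their values were seen, are ALK, AXL, BPI, CD163, CD69, CFD, CXCL12, EDDM3A, EDDM3B, EEF1G, EGFR, EIF2AK3, EVX1, GPR32, HBA1, HBA2, HBE1, HBG1, HBG2, HLA-DRB1, HOXA13, HOXC6, ICAM1, IGF2BP3, IL13RA1, IL4R, IL5RA, IL6ST, ITGAX, LIN28B, LORICRIN, MED16, MERTK, MET, MISP, MLLT3, MRC1, MS4A3, NFE2, P4HB, PALM, PDGFRA, PLPPR3, PRSS57, PTBP1, RNASE1, RNASE2, RNASE3, RNASE6, S100A7A, SDHA, SERPINB1, SHANK1 and TYRO3.

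Alternatives were other thresholds, pseudocounts of 0.1 and 1, rescaling, leaving out each library and leaving out overlapping genes.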

Additional observations from a re-analysis of the deposited data

How the results depend on the processing

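Of 599 values recomputed under another setting, 571 moved by less than the SD between libraries or, for counts and ranks, by at most 1.5 times. Leaving out 1 of 3 libraries cannot move a mean level or share by as much as that SD. Those values were thus bound to be counted as unmoved, and the tally does not measure how robust they are. The number of genes called expressed was 6123 at 5 FPKM. It was 12930 at 0.1 FPKM, 11820 with FPKM rescaled as in TPM and 9815 to 9866 when each library was left out in turn. Without mitochondrially encoded genes in the sum, ribosomal protein genes held 10.3%. The median was at 1 FPKM or above in 13 of 27 lists, at 0.1 FPKM or above in 22 and at 5 FPKM or above in 6. The mean correlation between libraries was 0.995 with a pseudocount of 0.1, 0.996 over genes at 1 FPKM or above, and 0.997865 to 0.998151 when each library was left out. For promoter windows of genes listed at 0, leaving out each library, chosen as an alternative after seeing the data, gave a median of 6 CpG in each case. It left 33 to 35 sets led by a gene above 50%, and changed the leading gene of 1 set, the PIM kinases without library 2. Leaving out genes with at least 10% shared exonic bases, also chosen after seeing the data, gave 8017 expressed genes and 12 lists. Levels of low and overlapping genes are the least certain. No paired analysis was possible because a single group was used.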
